A study of Mus musculus with 6 samples.

Results

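The genes described here are 10 of the NF-kB system: the subunit genes Nfkb1, Nfkb2, Rela and Relb, the IkB inhibitor genes Nfkbia, Nfkbib and Nfkbie, the gene of the ubiquitin-editing enzyme A20, Tnfaip3, and the adhesion molecule genes Vcam1 and Icam1. They were taken by gene symbol from a table of 25416 genes, and each symbol matched 1 row. The table holds FPKM, reads scaled to exon length and to the reads of the library, for 6 libraries of AML12, a hepatocyte line from a mouse that carried a transgene for human TGF alpha. Of these libraries, 3 were made from cells given scrambled RNA (siNC) and 3 from cells given an siRNA against Setdb1 (siSetdb1). In each case it was given at 50 nM, 72 h before the RNA of the cells was used. All 6 thus share the line, its transgenic origin and the transfection. Setdb1 encodes a histone H3 lysine 9 methyltransferase, and the comparison shows which mRNAs differ after its knockdown.

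NF-kB is a family of dimeric transcription factors held in the cytoplasm by IkB proteins. When receptors for TNF, interleukin 1 or microbial products activate the IkB kinases, IkB alpha is degraded, RELA with p50 (made from Nfkb1) enters the nucleus, and genes of chemokines, adhesion molecules and survival factors are transcribed. The same dimers induce Nfkbia and Tnfaip3, whose products end the response, so that the mRNA of these inhibitors is often used as a readout of NF-kB activity. A slower, noncanonical arm runs through NIK, the processing of p100 (Nfkb2) to p52 and RELB.

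The recovered totals were 16790582 to 17835060 reads per library. Setdb1 mRNA was 8.41, 8.54 and 9.43 FPKM in siNC and 4.29, 4.21 and 3.29 FPKM in siSetdb1. siNC replicate 1 stood apart from the other siNC libraries on the leading principal components of all tested genes, and it held the highest siNC value for 8 of the 10 genes. The fold change of each of the 10 genes without it is given beside the gene. siNC replicate 2 held the lowest siNC value for 9 of the 10, and siSetdb1 replicate 1 the highest siSetdb1 value for 7. The 10 genes are therefore not independent observations. Of 7 endothelial markers, all were under 0.5 FPKM in each library, including Pecam1 and Cdh5. Of the 6 leukocyte markers with a value, 4 were under 0.5 FPKM in each library, among them Ptprc, and the list summed to 4.76 to 6.68 FPKM in siNC and 2.39 to 3.19 FPKM in siSetdb1, mainly from Cd68. The part of Cd68 in the results was not tested. Hepatocyte markers summed to 70.5 to 111 FPKM in siNC and 39.8 to 59.0 FPKM in siSetdb1, with Serpina1a, Cps1 and Tat under 0.5 FPKM throughout, and whether their difference bears on the genes below was not tested. Cholangiocyte markers, of which Krt19 was the most abundant, summed to 1610 to 1790 FPKM and 1600 to 1780 FPKM, a sum set by Krt19, while Krt7 and Sox9 rose and Spp1 fell (limma adjusted p = 0.00827, 0.0068 and 0.00689). Their part in the results was not tested. In bulk RNA fewer cells of a type and less RNA per cell cannot be told apart. Separate cultures are not named in the labels for the replicates, and the p-values below therefore measure only how these samples vary, which may be technical variation.

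All 10 genes were lower in siSetdb1, and for each of them every siSetdb1 library lay below every siNC library. Such a separation downward was seen for 21.6% of the 12846 genes tested. By limma's test, adjusted by Benjamini-Hochberg over all tested genes, Nfkbia, Vcam1, Icam1, Relb, Tnfaip3 and Nfkb1 fell and none of the 10 rose, where 8.27% of all tested genes fell and 15.1% passed in either direction. Icam1 reached the filter of 0.5 FPKM in siNC alone, and among the other 9 genes, which reached it in all 6 libraries, 5 fell. Rela, Nfkb2, Nfkbib and Nfkbie did not pass, with adjusted p of 0.052 to 0.0709. The median log2 fold change of the 10 was -0.44, beside -0.018 for all tested genes. This median includes Icam1, and the 10 genes were chosen with earlier results of these data known. Fold changes are siSetdb1 over siNC on log2(FPKM + 1), a scale that understates the change of low genes. Without siNC replicate 1, with the same genes tested, 6 of the 10 fell, where 16.9% of all genes passed: Nfkb2 passed (adjusted p = 0.0431, limma) and Tnfaip3 did not (adjusted p = 0.0614). With siNC replicate 2 or 3 left out in the same way, 5 and 4 of the 10 fell (8.25% and 10.9% of all genes passed). With siSetdb1 replicate 1, 2 or 3 left out, 4, 2 and 3 fell, where 5.11%, 5.08% and 7.4% of all genes passed. Nfkbia and Vcam1 fell in each of these fits. With limma-voom on recovered reads 9 fell, all but Nfkbib, and 17.9% of all genes passed.

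**Figure D1:**
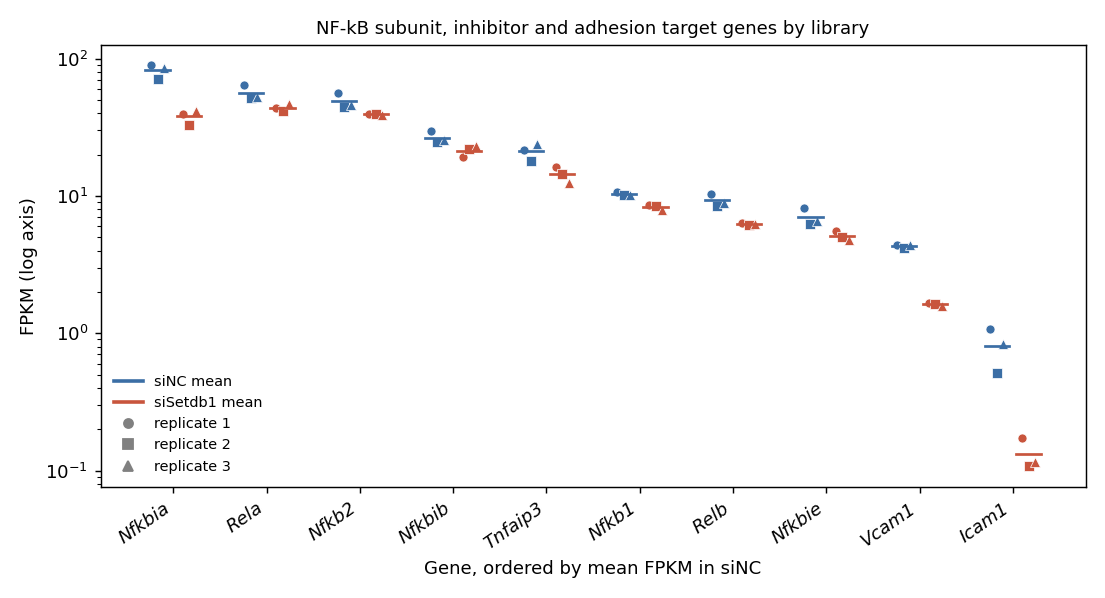
FPKM of each of the 10 genes in each of the 6 libraries (log axis), with siNC in blue, siSetdb1 in red, a marker per replicate and a line at the group mean of 3 libraries. For each gene the 3 red points lie below the 3 blue points, with the widest gaps at Nfkbia, Vcam1 and Icam1.

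Among the subunits, Relb and Nfkb1 fell, and Rela and Nfkb2 were lower by a similar amount as Nfkb1 without passing. Relb (ENSMUSG00000002983, chromosome 7, 19606217 to 19629438 of mm10), the transactivating partner of p52 in the noncanonical arm, had 10.4, 8.49 and 8.89 FPKM in siNC and 6.39, 6.12 and 6.22 FPKM in siSetdb1. The siSetdb1 libraries were close together and siNC replicate 1 was the highest. Its log2 fold change was -0.50 (SE 0.09, limma adjusted p = 0.0108), from 406 to 679 reads per library. Without siSetdb1 replicate 2 the adjusted p was 0.0509, and without siNC replicate 1 it was 0.00759 with a log2 fold change of -0.42.

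Nfkb1 (ENSMUSG00000028163, chromosome 3, 135584655 to 135691547), the source of p105 and p50, had 10.6, 10.2 and 10.2 FPKM in siNC and 8.55, 8.48 and 7.95 FPKM in siSetdb1. The difference was small, 19.6% of the siNC mean, and the spread within each group was smaller still. Its log2 fold change was -0.28 (SE 0.07, limma adjusted p = 0.0289), with 1711 to 2156 reads per library, and -0.27 without siNC replicate 1 (adjusted p = 0.0301). The call was lost without siNC replicate 2 or 3 (adjusted p = 0.0743 and 0.0621), without siSetdb1 replicate 1, 2 or 3 (0.0954, 0.0904 and 0.1), with no filter on low values (0.0665) and with the replicate number as a block (0.0769).

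Rela (ENSMUSG00000024927, chromosome 19, 5637483 to 5648130), which carries the main transactivation domain of the canonical dimer, had 64.0, 51.2 and 52.7 FPKM in siNC and 44.0, 41.4 and 46.6 FPKM in siSetdb1. The means differed by 21.4% with siNC replicate 1 well above the rest. The log2 fold change was -0.34 with a 95% interval of -0.56 to -0.11 (limma adjusted p = 0.0574), and -0.24 without siNC replicate 1. Nfkb2 (ENSMUSG00000025225, chromosome 19, 46304320 to 46312385), the source of p100 and p52, had 56.0, 44.6 and 46.1 FPKM against 39.8, 39.4 and 39.0 FPKM. Here too siNC replicate 1 was the highest library, and the siSetdb1 values were nearly equal. The log2 fold change was -0.30 (95% interval -0.51 to -0.08, limma adjusted p = 0.0668) and -0.20 without siNC replicate 1. Of 4584 exon bases of Nfkb2, 299 are shared with Psd and 531 with AC114539.1 on the opposite strand. No strand-marking step is described for the libraries. Psd had 4.15 to 5.58 FPKM and AC114539.1 4.5 to 6.89 FPKM, so that some reads may belong to either gene. The number of such reads was not counted. The ratio of Nfkb2 to Nfkb1 was 4.72 ± 0.48 in siNC and 4.73 ± 0.14 in siSetdb1 (SD, n = 3, exact permutation p = 1.0, two-sided).

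**Figure D2:**
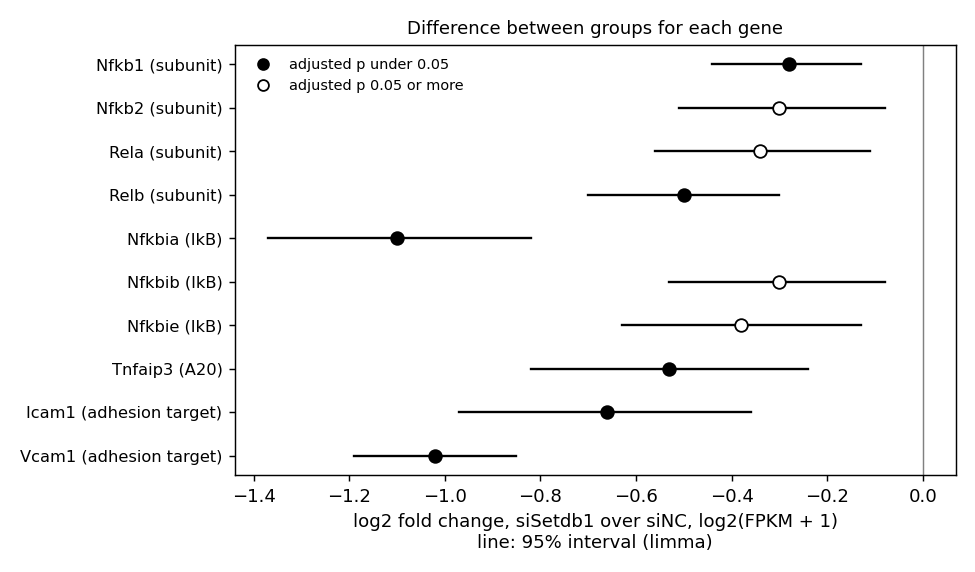
Log2 fold change of siSetdb1 over siNC with its 95% interval from limma for each gene, grouped by role, with filled points at an adjusted p under 0.05. Nfkbia (-1.10) and Vcam1 (-1.02) lie farthest from 0, and the 4 open points, Nfkb2, Rela, Nfkbib and Nfkbie, lie between -0.38 and -0.30.

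The 3 IkB genes differed in size of change, with Nfkbia lower by 53.8%, Nfkbie by 26.9% and Nfkbib by 19.8% of the siNC mean. Nfkbia (ENSMUSG00000021025, chromosome 12, 55489410 to 55492647), which encodes IkB alpha, the fast inhibitor that is resynthesised on each NF-kB response, had 90.2, 71.4 and 85.2 FPKM in siNC and 39.5, 32.9 and 41.5 FPKM in siSetdb1. The highest siSetdb1 library was far below the lowest siNC library. Nfkbia had a log2 fold change of -1.10 (SE 0.12, limma adjusted p = 0.0022), from 904 to 2438 reads per library, and the gene passed in each of 19 alternative fits, with log2 fold changes of -1.19 to -1.0 (-1.03 without siNC replicate 1). Nfkbie (ENSMUSG00000023947, chromosome 17, 45555703 to 45563169), which encodes IkB epsilon, an inhibitor induced more slowly, had 8.23, 6.25 and 6.58 FPKM against 5.59, 5.00 and 4.81 FPKM. Its groups did not overlap, and the log2 fold change of -0.38 (95% interval -0.63 to -0.13) had an adjusted p of 0.052 with limma and, from recovered reads, of 0.0372 with limma-voom. Without siNC replicate 1 it was -0.28 (limma adjusted p = 0.055). Nfkbib (ENSMUSG00000030595, chromosome 7, 28758251 to 28767512), which encodes IkB beta, had 29.6, 24.6 and 25.6 FPKM against 19.3, 21.8 and 23.0 FPKM. The lowest siNC and the highest siSetdb1 value were near each other, the log2 fold change was -0.30 (95% interval -0.53 to -0.08, limma adjusted p = 0.0709), and the gene passed in none of the 19 alternative fits, with adjusted p of 0.0555 to 0.223. Without siNC replicate 1 its log2 fold change was -0.23. Its exons share 314 of 2169 bases with Ccer2 and 42 with Sirt2, both on the opposite strand. Sirt2 had 17.1 to 24.1 FPKM and Ccer2 had no value. Some reads of the shared bases may belong to either gene, and their number was not counted.

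Promoter sequences of the inhibitor genes are shown because NF-kB dimers are known to act there. The RefSeq table for GRCm38.p6, the assembly of mm10, matched 7 of the 10 genes with 10 windows of 300 bases, from 250 before to 50 after a start site (not matched: Nfkb1, Relb and Vcam1). Both strands were searched for the kB motif, the degenerate sequence of 10 letters bound by NF-kB dimers, and for a stricter form contained in it, GGGA, any base and TTTCC. The kB motif was in a window of 4 of these 7 genes, Nfkbia, Nfkbie, Tnfaip3 and Nfkb2, and of 5.14% of the 27025 genes of the table. Counted by window, it was in 6 of the 10 and in 4.51% of all 32851 windows. Neighbouring Nfkb2 windows overlap and share the match at chr19:46305705-46305714, which is counted in each of them. The stricter form was in the windows of Nfkbia and Nfkb2 and in 0.411% of all windows. No match was found in the windows of Rela, Nfkbib and Icam1, which says only that these letters are not there. The 250 bases before the start of Nfkbia (chr12:55492648-55492897, minus strand) and of Nfkbie (chr17:45555450-45555699, plus strand) lie outside the annotated transcripts of these genes, and capitals mark the kB motif.
Nfkbia: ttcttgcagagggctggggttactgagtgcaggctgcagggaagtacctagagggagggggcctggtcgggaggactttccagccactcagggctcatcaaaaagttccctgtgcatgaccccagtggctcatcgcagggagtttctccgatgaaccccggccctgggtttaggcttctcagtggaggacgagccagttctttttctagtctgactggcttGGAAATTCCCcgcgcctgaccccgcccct
Nfkbie: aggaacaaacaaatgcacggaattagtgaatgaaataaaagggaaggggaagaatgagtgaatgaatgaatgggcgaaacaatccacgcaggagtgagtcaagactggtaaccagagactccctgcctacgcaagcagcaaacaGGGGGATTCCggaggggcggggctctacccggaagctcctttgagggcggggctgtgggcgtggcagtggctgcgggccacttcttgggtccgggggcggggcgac
The match of Nfkbia spans -29 to -20 and that of Nfkbie -106 to -97 from the start site. A match is a description of letters, and no binding was measured in these libraries.

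One Tnfaip3 window held 2 matches, at -125 and -12 (chr10:19015516-19015545 and chr10:19015411-19015432, minus strand), both in an intron of an annotated transcript of the gene. The most upstream Nfkb2 window held 3 matches, of which a pair overlaps, in an exon of an annotated transcript (chr19:46304689-46304718, plus strand), and a start site farther downstream had the stricter form, also within an exon (chr19:46305695-46305724). Of all windows in the table, 0.554% held 2 or more matches and 0.0517% held 3 or more. Stretches of at most 30 bases around these matches are given with the motif in capitals.
Tnfaip3, match at -125: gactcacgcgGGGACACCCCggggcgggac
Tnfaip3, match at -12: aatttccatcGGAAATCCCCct
Nfkb2, overlapping matches at -39 and -38: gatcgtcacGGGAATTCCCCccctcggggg
Nfkb2, downstream start, match at -225: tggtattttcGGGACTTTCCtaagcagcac
Of the genes with a kB motif in a window, Nfkbia and Tnfaip3 fell, and Nfkbie and Nfkb2 did not pass. Of the searched genes without it, Icam1 fell, and Rela and Nfkbib did not pass.

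Tnfaip3 (ENSMUSG00000019850, chromosome 10, 19000910 to 19015657), the gene of A20, which removes and adds ubiquitin on RIPK1 and other adaptors to stop signalling to the IkB kinases, had 21.6, 18.1 and 23.7 FPKM in siNC and 16.3, 14.4 and 12.4 FPKM in siSetdb1. The lowest siNC and the highest siSetdb1 library were near each other, and both groups were spread. Its log2 fold change was -0.53 (SE 0.12, limma adjusted p = 0.031), with 1599 to 2945 reads per library, and -0.51 without siNC replicate 1. Tnfaip3 did not pass without siNC replicate 1 or 3 (adjusted p = 0.0615 and 0.071) or siSetdb1 replicate 2 or 3 (0.097 and 0.0869). It did not pass with no filter (0.0922) or with the replicate block (0.0653) either.

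Both adhesion molecule genes fell. Vcam1 (ENSMUSG00000027962, chromosome 3, 116109949 to 116129688), whose product binds the integrin VLA-4 on leukocytes, had 4.36, 4.16 and 4.41 FPKM in siNC and 1.67, 1.63 and 1.57 FPKM in siSetdb1. The libraries of each group were nearly equal and the groups far apart, a 2.66-fold difference of the means. Vcam1 had a log2 fold change of -1.02 (SE 0.07, limma adjusted p = 0.000882), from 247 to 672 reads, and the gene passed in each of the 19 alternative fits, with -1.01 without siNC replicate 1. Icam1 (ENSMUSG00000037405, chromosome 9, 21015985 to 21028817), a ligand of the leukocyte integrins LFA-1 and Mac-1, was low, with 1.07, 0.514 and 0.841 FPKM in siNC and 0.173, 0.107 and 0.116 FPKM in siSetdb1. These values stood on 78, 39 and 63 reads and on 13, 8 and 9 reads. The log2 fold change was -0.66 (SE 0.13, limma adjusted p = 0.0174) at the pseudocount of 1 and -1.93 at 0.1. It was -2.52 when recovered reads were fitted with limma-voom, and the means differed 6.12-fold. Icam1 passed the filter through siNC alone, and with siSetdb1 values this low it could enter the test only by being higher in siNC. Leaving out siSetdb1 replicate 1, 2 or 3 gave Icam1 a limma adjusted p of 0.0583, 0.0651 or 0.0522, and leaving out siNC replicate 1, with the gene set kept, 0.0332 at a log2 fold change of -0.56. Of 4360 exon bases of Icam1, 511 are shared with Gm47079 on the opposite strand, which had at most 0.0342 FPKM.

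The order of levels changed at the top. In siNC the order by mean FPKM was Nfkbia (82.3 ± 9.7, SD, n = 3), Rela (56.0 ± 7.0), Nfkb2 (48.9 ± 6.2), Nfkbib (26.6 ± 2.7), Tnfaip3 (21.1 ± 2.8), Nfkb1 (10.4 ± 0.25), Relb (9.26 ± 1.01), Nfkbie (7.02 ± 1.07), Vcam1 (4.31 ± 0.13) and Icam1 (0.807 ± 0.277). The ranges of Rela and Nfkb2 overlapped, as did those of Nfkb1 and Relb, and the other neighbours did not overlap. In siSetdb1 Rela (44.0 ± 2.6) came first, then Nfkb2 (39.4 ± 0.42) and Nfkbia (38.0 ± 4.5), and the range of Nfkbia overlapped those of both Nfkb2 and Rela, while Rela and Nfkb2 did not overlap. The other 7 genes kept their order. FPKM is here per length of all annotated exons of a gene, and which exons the cells used was not examined. The order between genes with near levels is therefore uncertain.

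Ratios within a library do not depend on how libraries are scaled, and 6 were computed, chosen after the values were seen. Nfkbia to Rela was 1.41, 1.39 and 1.62 in siNC and 0.898, 0.794 and 0.892 in siSetdb1. In FPKM, Nfkbia was thus above Rela in each siNC library and below it in each siSetdb1 library. The exact permutation p was 0.1, two-sided, the smallest that 3 against 3 allows, and 0.3 adjusted over the 6 ratios. Relb to Rela was also separated, at 0.166 ± 0.003 and 0.142 ± 0.008 (SD, n = 3, exact permutation p = 0.1, adjusted 0.3). The ratios of Nfkbib, Nfkbie and Tnfaip3 to Rela overlapped between groups, with exact permutation p of 0.8, 0.4 and 0.5. For Tnfaip3 the means were 0.38 ± 0.06 and 0.328 ± 0.055.

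**Figure D3:**
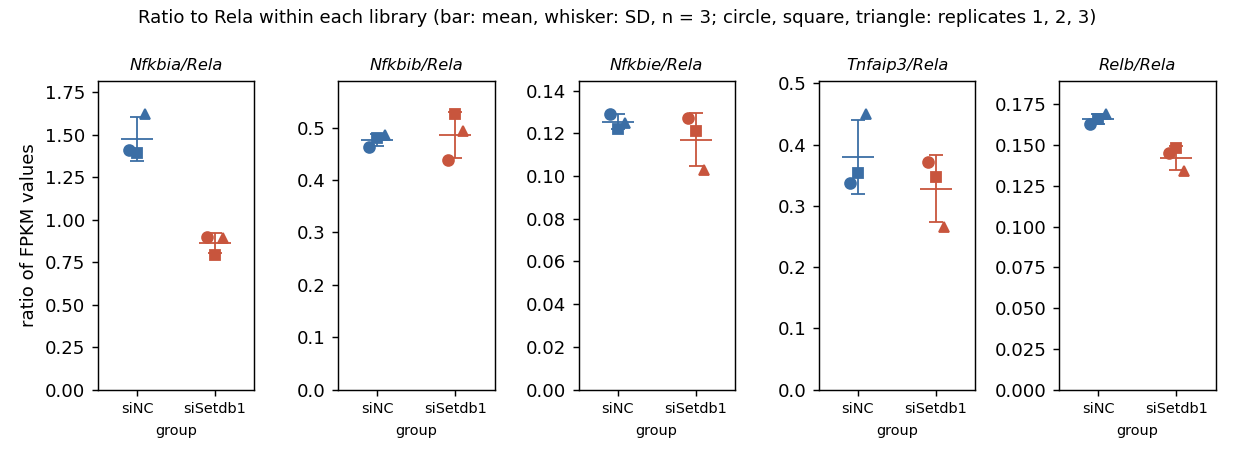
Ratio of the FPKM of Nfkbia, Nfkbib, Nfkbie, Tnfaip3 and Relb to that of Rela in each library, with the mean and SD of 3 libraries per group. Nfkbia and Relb are separated between groups, Nfkbia at 1.39 or more in siNC and 0.898 or less in siSetdb1, and the other 3 overlap.

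Other genes of the pathway were taken from 6 lists, to be read beside the 6.87% of all tested genes that rose and the 8.27% that fell. Of the 5 tested genes of the REL family and the atypical IkB proteins, none rose or fell (at an unadjusted p under 0.05, 0 higher and 1 lower, limma, and 0 passed with limma-voom), with a median log2 fold change of 0.09. Rel, the gene of c-REL, had 2.86, 3.31 and 3.57 FPKM in siNC and 3.54, 3.62 and 3.74 FPKM in siSetdb1, which overlapped. Nfkbiz, an inducible nuclear IkB, overlapped as well (log2 fold change 0.09, adjusted p = 0.63), and Bcl3, a nuclear partner of p50 and p52, had 11.9, 11 and 11.4 FPKM against 9.05, 9.54 and 10.3 FPKM (-0.22, adjusted p = 0.0819). Nfkbil1 (-0.29, adjusted p = 0.177) and Nkrf, a repressor of NF-kB promoters (0.20, adjusted p = 0.203), did not pass, and Nfkbid was at or below 0.0248 FPKM.

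Of 11 genes of the IkB kinase, NIK and TAK1 complexes, all tested, 2 rose, 1 fell and 8 did not pass, beside 6.87% and 8.27% of all tested genes that rose and fell. Chuk, the gene of IKK alpha, had 23.7, 28.4 and 29.7 FPKM in siNC and 37.5, 37.0 and 34.9 FPKM in siSetdb1 (log2 fold change 0.41, limma adjusted p = 0.0272). Ikbkg, the gene of the scaffold NEMO, rose by 0.29 (adjusted p = 0.0456), and Ikbke, the gene of an IKK-related kinase that NF-kB is known to induce, fell from 8.20, 6.29 and 7.77 FPKM to 4.87, 4.95 and 4.81 FPKM (log2 fold change -0.51, adjusted p = 0.0151). Leaving out any 1 siSetdb1 library ended all 3 calls, with adjusted p of 0.0595 to 0.104 for Chuk, 0.0998 to 0.17 for Ikbkg and 0.05 to 0.0631 for Ikbke. Chuk also missed the threshold without siNC replicate 2 (0.0563), and Ikbkg without siNC replicate 1 or 2 (0.0577 and 0.125). Ikbkb, the gene of the main canonical kinase IKK beta, had a log2 fold change of -0.02 (SE 0.09), and Map3k14, the gene of NIK, of -0.12 (SE 0.09), neither passing.

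Of 24 tested receptors and adaptors above the kinases, 1 rose (Irak2), 1 fell (Tlr2) and 22 did not pass. Over all tested genes 6.87% rose and 8.27% fell. The median log2 fold change of these 24 genes was 0.0. Irak2, a kinase of the MyD88 branch, rose from 6.05, 4.69 and 5.55 FPKM to 7.01, 6.89 and 7.84 FPKM (log2 fold change 0.36, limma adjusted p = 0.0458). Tlr2, a receptor for bacterial lipoproteins, had 1.05, 0.667 and 0.869 FPKM in siNC, the only group in which it reached the filter, and 0.48, 0.253 and 0.335 FPKM in siSetdb1. Neither call held without any 1 of the siSetdb1 libraries, with adjusted p of 0.0774 to 0.132, and Irak2 also missed the threshold without siNC replicate 2 or 3 (0.11 and 0.0791). With the gene set kept, Tlr2 did not pass without siNC replicate 1, 2 or 3 either (0.0863, 0.0507 and 0.0837), so that its call needed all 6 libraries. The TNF receptor gene Tnfrsf1a had a log2 fold change of -0.14 (adjusted p = 0.406).

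Among 18 tested ubiquitin-linked brakes and A20 partners, 3 rose and none fell, beside 6.87% and 8.27% of all tested genes. At an unadjusted p under 0.05 (limma) 4 were higher and 3 lower, and 0 fell with limma-voom. Socs1, a feedback inhibitor of cytokine signalling, had 1.25, 1.09 and 1.14 FPKM in siNC and 2.11, 2.46 and 3.43 FPKM in siSetdb1 (log2 fold change 0.75, adjusted p = 0.013), and it passed in each of 19 alternative fits. Otud7b, a deubiquitinase related to A20, and Pdlim2, which promotes the degradation of nuclear RELA, each rose by 0.34 (adjusted p = 0.0218 and 0.0446), and neither passed without siNC replicate 2 (0.0638 and 0.12), siSetdb1 replicate 1 (0.0904 and 0.16) or siSetdb1 replicate 2 (0.091 and 0.0611). Pdlim2 also missed it without siNC replicate 3 (0.0852) or siSetdb1 replicate 3 (0.123). Tnip1, the gene of an A20-binding partner, did not pass (-0.11, adjusted p = 0.465). The median of this list was 0.076.

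Other genes that NF-kB is known to induce moved in both directions. Of 38 listed, 34 had a value, and the other 4 were not analysed here. Of the 34, 24 were tested, of which 11 fell, 4 rose and 9 did not pass, with a median of -0.509. Over all tested genes 8.27% fell and 6.87% rose. The list was chosen with earlier results of these data known. Saa3 was tested through siNC alone. Ccl2, a monocyte chemokine, had 323, 247 and 336 FPKM in siNC and 49.2, 46.0 and 44.2 FPKM in siSetdb1 (log2 fold change -2.66). Ccl20, a chemokine of mucosal surfaces, had 6.16, 3.56 and 7.70 FPKM against 1.30, 0.577 and 1.03 FPKM (-1.76), and Csf1, a macrophage growth factor gene, 36.0, 27.4 and 35.9 FPKM against 12.1, 10.8 and 10.6 FPKM (-1.48). In the other direction, Ptgs2, the gene of inducible cyclooxygenase, rose from 1.39, 1.38 and 2.66 FPKM to 4.66, 4.96 and 5.24 FPKM (1.11, limma adjusted p = 0.0071). The colony-stimulating factor genes Csf2 and Csf3 rose by 0.88 and 0.80 (adjusted p = 0.0161 and 0.0148). Csf2 was low, with 7, 9 and 3 reads in siNC against 17, 31 and 23 reads in siSetdb1. Ccl2, Ccl20, Csf1 and Ptgs2 passed in each of 19 alternative fits. Csf2 and Csf3 missed the threshold without siSetdb1 replicate 2 (limma adjusted p = 0.0536 and 0.0539), Csf3 also without siSetdb1 replicate 1 (0.0521). With no filter on low values neither passed (0.0563 and 0.0524), and with the replicate block Csf3 did not (0.0533). Without siSetdb1 replicate 2, 7 fell and 1 rose, where 5.08% of all genes passed. Without siNC replicate 1, 9 fell and 5 rose, where 16.9% passed.

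Adhesion genes other than Vcam1 and Icam1 did not share one direction. Of 18 listed, 6 were tested, of which 3 rose and 1 fell, beside 6.87% and 8.27% of all tested genes. The median of the 6 was -0.011. Jam2, a junctional adhesion molecule gene, had 2.2, 2.13 and 2.60 FPKM in siNC and 6.72, 7.07 and 6.19 FPKM in siSetdb1 (log2 fold change 1.21, limma adjusted p = 0.000882). Itgb1, whose product pairs with integrin alpha 4 in VLA-4, the receptor for VCAM1, rose from 144, 178 and 173 FPKM to 272, 291 and 285 FPKM (0.78, adjusted p = 0.00306). F11r, the gene of JAM-A, rose by 0.32 (adjusted p = 0.0328), and Itgb2, the beta chain of LFA-1 and Mac-1 that bind ICAM1, fell from 1.41, 1.58 and 1.39 FPKM to 0.797, 0.96 and 0.661 FPKM (-0.45, adjusted p = 0.0249). Itga4, the gene of integrin alpha 4, had no value. The integrin alpha chain genes Itgal and Itgam of the same list were at or below 0.0262 and 0.0356 FPKM and were not tested. Jam2 and Itgb1 passed in each of 19 alternative fits. F11r and Itgb2 did not pass without siNC replicate 2 (adjusted p = 0.0869 and 0.0774) or without siSetdb1 replicate 1 (0.123 and 0.0915). Itgb2 also missed the threshold without siSetdb1 replicate 3 (0.0795), and F11r without siNC replicate 3 (0.0587) or siSetdb1 replicate 2 or 3 (0.096 and 0.0918).

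**Figure D4:**
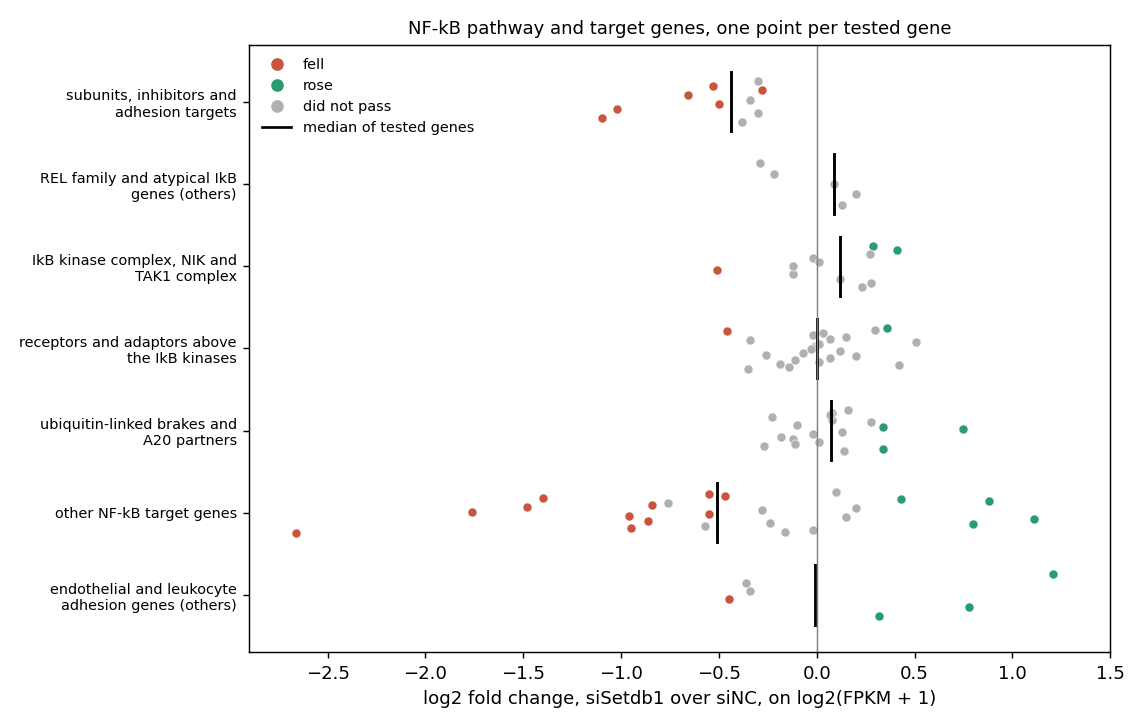
Log2 fold change of siSetdb1 over siNC for each tested gene of the 10 described genes and of 6 lists, with genes that fell in red, genes that rose in green, the rest in grey and a black line at the median. The 10 genes (median -0.44) and the other target genes (median -0.509) lie mainly to the left of 0, and the medians of the other lists are between -0.011 and 0.121.

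The genes outside all lists whose log2 values were most like those of Nfkbia over the 6 libraries were Kifc3, a kinesin gene (Pearson's r 0.9983), Ivd, the gene of isovaleryl-CoA dehydrogenase (0.9981), and Srprb, of the signal recognition particle receptor (0.9975), among 12845 genes compared. The 6 points fall into 2 groups, so that r is set largely by the difference between groups, and no test is attached. Kifc3 had 2.42, 1.87 and 2.26 FPKM in siNC and 0.699, 0.531 and 0.751 FPKM in siSetdb1, with replicate 2 lowest in each group as for Nfkbia.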

How the data were processed

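RNA of 6 AML12 samples was sequenced with single-end reads of 50 bases from oligo(dT)-selected, randomly primed cDNA, per the labels' protocols. The submitters' processing notes name HISAT2 2.0.4, Bowtie2 2.2.5, RSEM 1.2.12, DESeq2 1.4.5 and mm10 with no role for any of them. The header of the deposited table names no unit. The authors' values are FPKM, judged from the numbers: with exon lengths of GENCODE M21, whole reads within 0.01 came out in all libraries for 98.8% of 25372 matched genes. Samples were grouped by title.

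A gene entered the test when 3 libraries or more had 0.5 FPKM (12846 genes, 12570 left out). The tests (limma 3.58.1, R 4.3.3) used log2(FPKM + 1), group as the only term and a robust prior variance that follows intensity, Benjamini-Hochberg threshold 0.05. The code was tested on simulated reads. No pair of libraries within a group matched within sampling noise (chi-square over its degrees of freedom, 4.7 to 23.9). All 10 members, the genes of the REL list and up to 3 genes per list and direction with the largest change among those that passed are named, with the 3 genes most like Nfkbia. Others named (Ikbkb, Map3k14, Tnfrsf1a, Tnip1 and those in the closing section) were chosen after their values were seen. The members and lists were chosen with earlier results of these data known. Alternatives were other pseudocounts, filters, scaling, prior variances, a replicate block, limma-voom, each library left out and, added after seeing the data, removal of trends with GC content and length and leaving out siNC libraries with the gene set kept.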

Additional observations from a re-analysis of the deposited data

How the results depend on the processing

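All 10 genes were lower in siSetdb1 under each of the alternatives in which they were tested. Icam1 was not tested with the filter at 1 FPKM or without a siNC library unless the gene set was kept. The number of the 10 that fell ranged from 2 to 5 when 1 library was left out, and from 4 to 6 without a siNC library when the gene set was kept. It was 9 after removal of GC and length trends, where 21.1% of all genes passed, beside 15.1% in the main fit. Over all genes (main counts 1062 and 883), 323 to 1037 fell and 317 to 1102 rose with 1 library left out. Without siNC replicate 2 but with the gene set kept, 574 fell and 486 rose. With no filter on low values 430 fell and 460 rose, and with the replicate block 535 fell and 480 rose. With the GC and length trends removed 1317 fell and 1387 rose. The share of calls that rose was 45.4% and 54.1% with median-ratio scaling.

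The labels do not say whether a replicate number joins a siNC and a siSetdb1 library. Correlations of same-numbered deviations from the group mean were -0.157, 0.167 and -0.172, and those of other pairs ranged from -0.204 to 0.283. With 3 libraries per group these values cannot show whether libraries were paired. With the replicate block 4 of the 10 fell, Relb, Nfkbia, Vcam1 and Icam1, where 7.9% of all genes passed. With the replicate block 0 kinase genes rose, 0 receptor and adaptor genes rose or fell and 0 adhesion genes fell. With no filter 0 kinase genes rose or fell, 0 receptors and adaptors rose or fell, 1 brake and 2 targets rose, and 0 adhesion genes fell. With 1 prior variance 1 kinase gene and 0 receptors and adaptors rose. With limma-voom 2 receptors and adaptors rose and 2 fell. With the GC and length trends removed 1 kinase gene rose, 5 receptors and adaptors rose and 3 fell, 1 brake fell and 2 adhesion genes fell. With 1 library left out the ranges were 0 to 2 kinase genes that rose and 0 to 1 that fell, 0 to 3 receptors and adaptors that rose and 0 to 1 that fell, 1 to 3 brakes that rose, 7 to 11 targets that fell and 1 to 5 that rose, and 0 to 2 adhesion genes that fell. Fewer samples are behind each of these fits. For the other alternatives the cause of the difference was not tested. Counts of 8 to 13 reads limit the siSetdb1 value of Icam1.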

Other observations

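Some pathway genes under the filter, and so not tested, were separated between groups. They were chosen after their values were seen. Traf1, the gene of an adaptor that NF-kB induces, had 0.534, 0.248 and 0.330 FPKM in siNC and 0.0525, 0.0465 and 0.0636 FPKM in siSetdb1, from 79, 38 and 50 reads and from 8, 7 and 10 reads. Il1r1, the signalling receptor of interleukin 1, had 34, 25 and 32 siNC reads against 5, 8 and 7 siSetdb1 reads. Tnip3, the gene of an A20-binding protein, had 17, 22 and 24 reads against 9, 4 and 5 reads. The chemokine gene Cxcl2 had 31, 15 and 31 reads against 5, 9 and 9 reads. Ccl5, a chemokine gene of the same target list, was higher in siSetdb1, at 6, 8 and 7 reads against 3, 2 and 2 reads. Lcn2, the gene of lipocalin 2, was tested and varied within both groups, with 12.4, 4.03 and 22.9 FPKM in siNC and 3.80, 3.71 and 13.6 FPKM in siSetdb1 (limma adjusted p = 0.44).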
